A study of Mus musculus with 18 samples.

Results

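Oligodendrocytes are the myelinating glia of the central nervous system, and the genes described here mark the steps of their lineage from precursor to myelinating cell. The 29 genes were chosen by name, as known markers of precursor, differentiating and myelin-forming stages, with earlier results of these data known. They are 29 of the 51912 genes counted. By role they comprise 7 transcription factors (*Sox10*, *Sox8*, *Olig1*, *Olig2*, *Nkx2-2*, *Myrf*, *Zfp488*), 4 precursor surface genes (*Pdgfra*, *Cspg4*, *Pcdh15*, *Neu4*), 3 genes of newly committed cells (*Gpr17*, *Enpp6*, *Bcas1*), 9 myelin genes (*Mbp*, *Mog*, *Mag*, *Mobp*, *Cnp*, *Opalin*, *Mal*, *Cldn11*, *Ermn*), 3 enzymes (*Ugt8a*, *Fa2h*, *Aspa*) and 3 genes of junctions and adhesion (*Gjc3*, *Nfasc*, *Lims2*).

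The study asked which transcripts are changed by ethanol in primary cultures of cortical astrocytes, in total RNA and in RNA bound to ribosomes of Aldh1l1-expressing cells. Cultures were made from postnatal day 0 cortices of mice hemizygous for an Aldh1l1-EGFP/Rpl10a transgene (line JD130Htz, made on a B6;FVB background), bred with C57BL/6J and pooled from equal numbers of males and females. In TRAP (translating ribosome affinity purification), antibodies to EGFP pull down ribosomes that carry EGFP-tagged RPL10A, here under the *Aldh1l1* promoter, an astrocyte promoter. The IP fraction holds the RNA pulled down and the input fraction the RNA of the lysate before pull-down. Control and ethanol dishes carried the same transgene. By the labels they differ in treatment and in a running number, 13 to 18 for ethanol dishes and 19 to 24 for control dishes. All dishes were grown for 14 days in serum, passaged, grown for 6 days and kept for 24 h without serum. The ethanol dishes then received 50 mM ethanol in serum-free medium for 24 h in sealed chambers, and the control dishes (0 mM) the same medium without ethanol. The 18 libraries fall into IP control (n = 6), IP ethanol (n = 6), input control (n = 3) and input ethanol (n = 3), from 12 dishes, with input taken from replicates 4 to 6 of each treatment. The dishes were plated from cultures of pooled cortices, and a separate pool for each dish is not stated. Within a fraction, p-values therefore measure the spread between dishes and not between animals. Comparisons over all 18 libraries count the dishes of replicates 4 to 6 in both fractions, so their p-values measure the spread between libraries.

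Oligodendrocyte precursors arise from progenitors that express *Olig1* and *Olig2*, and carry PDGFRA and the proteoglycan CSPG4 (NG2) on their surface. SOX10 is kept throughout the lineage, MYRF switches on the myelin program, and MBP, MOG, MAG and MOBP are parts of the myelin sheath. Several of these genes are also used by other cells, such as *Pdgfra* in fibroblasts, *Cspg4* in mural cells and *Sox10* in Schwann cells, and *Olig2* and *Sox8* are made by some astrocytes.

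Each library had 74239854 to 132810705 read pairs on genes. Levels are given as CPM, the read pairs of a gene per 1000000 after TMM scaling between libraries, and levels of different genes are compared as RPKM, the same value divided by the length of the longest transcript in kilobases. Folds are on the log2 scale. Genes with at least 10 read pairs summed over the 18 libraries were tested, which left 24495 genes, and a gene was called changed at an adjusted p under 0.05. Of the 29 genes, 26 were tested, and the 3 others were at or near 0. *Zfp488*, a co-factor of OLIG2, had 0 read pairs in all 18 libraries, *Neu4*, a sialidase, had 1 and *Opalin*, a membrane protein of myelin, had 2. A count of 0 allows up to 3 read pairs, which is 0.0228 to 0.0409 CPM depending on the library and covers counting error alone. Positions are those of mouse genome build GRCm38.

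The levels of the 29 genes spanned several orders of magnitude. *Olig1* ranked first with a mean of 78.6 RPKM over the 18 libraries, followed by *Cnp*, a phosphodiesterase of uncompacted myelin, with 42.1 RPKM. *Nfasc*, which encodes the adhesion protein neurofascin of axons and glia, and *Olig2* had nearly equal means of 16.3 and 16.3 RPKM. *Nfasc* lay below *Olig2* in input and in IP control, and above it in IP ethanol. *Sox8*, a relative of *Sox10*, followed with 13.7 RPKM. In input *Sox8* lay above *Nfasc* (10.2 against 8.38 RPKM in control, 10.96 against 10.3 in ethanol). These 5 genes held 92.3% of the RPKM summed over the list, and the median of the 17027 protein-coding genes tested was 4.46 RPKM.

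Below them, on the same RPKM scale, came *Lims2*, an adaptor of integrin adhesion sites, with 8.11 RPKM, *Cspg4* with 2.38 and *Nkx2-2*, a transcription factor of ventral progenitors and precursors, with 1.19. *Myrf* (0.68 RPKM), *Mbp* (0.555 RPKM), *Pdgfra* (0.285 RPKM), *Aspa* (0.209 RPKM) and *Mal* (0.136 RPKM) were lower. These are means over the 18 libraries, and the order differed in input. *Mbp* lay above *Myrf* there (0.820 against 0.525 RPKM in control, 1.01 against 0.594 in ethanol). *Aspa* lay above *Pdgfra* (0.319 against 0.204 RPKM in control, 0.310 against 0.302 in ethanol). In input control *Nkx2-2* lay above *Cspg4* (1.37 against 1.26 RPKM). The remaining 16 genes were under 0.1 RPKM on average over the 18 libraries. Above that limit in input were *Cldn11* (0.105 RPKM in control and 0.137 in ethanol) and, in input ethanol, *Mag* (0.129 RPKM). Of the genes that define the lineage or its myelin, *Sox10* reached at most 12 read pairs in a library, *Mog* 10, *Mobp* 10 and *Mag* 29, at depths of at least 74239854 read pairs. *Gpr17*, *Ermn*, *Gjc3*, *Ugt8a*, *Bcas1*, *Fa2h* and *Enpp6* were likewise at most 24 read pairs in any library. The list is therefore described by its genes and is not taken as a measure of oligodendrocytes in the dishes.

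**Figure D1:**
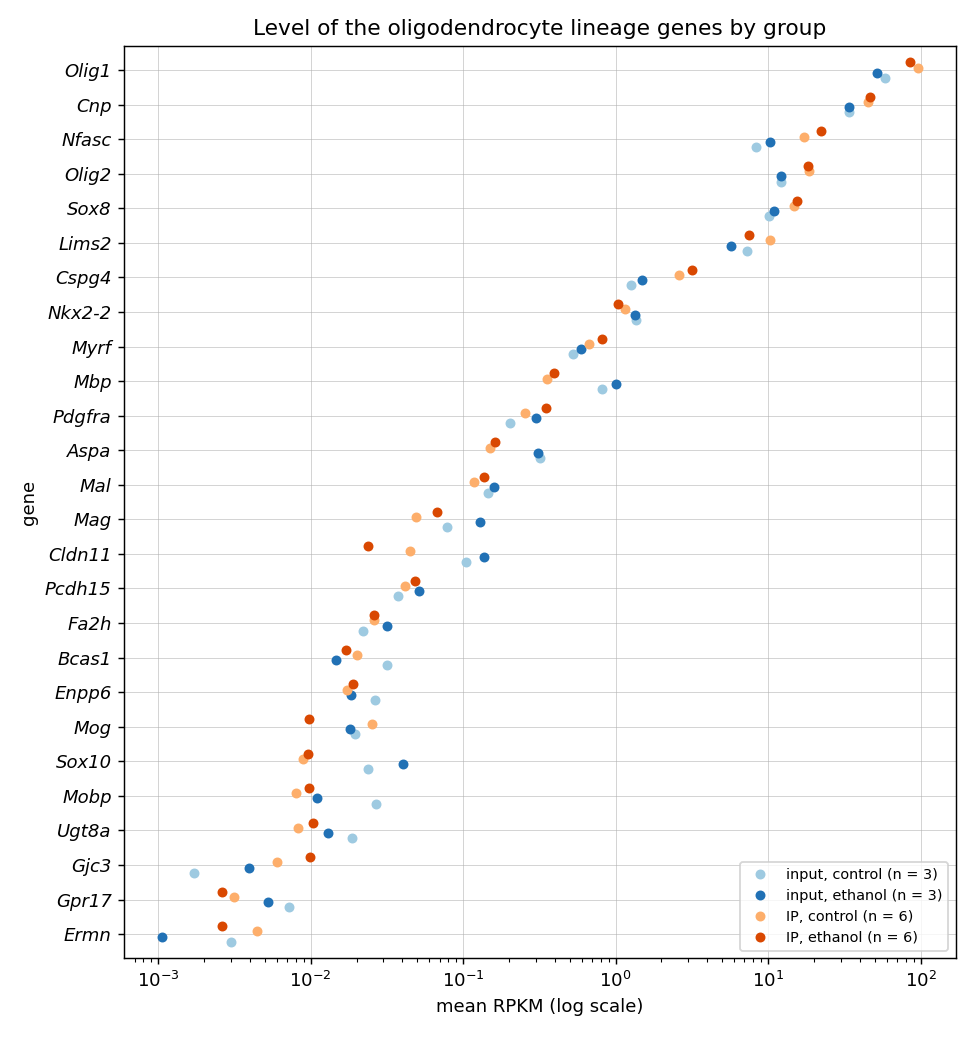
Mean level of the 26 genes tested, in RPKM on a log axis, with a point for each of the 4 groups (n = 3 for input and 6 for IP). *Olig1* lies highest with a mean of 95.8 RPKM in IP control, and 13 of the genes drawn lie under 0.1 RPKM on average over the 18 libraries.

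The labels call the cells astrocytes, and the markers of astrocytes were abundant. The 12 astrocyte markers summed to 1265, 1307 and 1315 CPM in input control, 1352, 1326 and 1352 CPM in input ethanol, 1955 to 2048 (median 2009) CPM in IP control and 2094 to 2190.2 (median 2133) CPM in IP ethanol. By CPM, which is not corrected for length, the glutamate transporter gene *Slc1a3* stood first among them with a mean of 336 over the 18 libraries. In IP control *Aldh1l1* lay above it (383 against 350 CPM). By RPKM the filament gene *Gfap* was above *Slc1a3* (107 against 75.8 RPKM). The connexin gene *Gjb6*, named after its values were seen, was near 0 with at most 8 read pairs in a library. Each of the 18 libraries therefore held more CPM of the 12 astrocyte markers than of the 29 lineage genes, which summed to 394, 413 and 412 CPM in input control, 407, 414 and 418 CPM in input ethanol, 637 to 662 (median 651) CPM in IP control and 668 to 696 (median 682) CPM in IP ethanol.

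The counts do not use strand. Where annotated genes on opposite strands overlap, shared pairs are set aside as ambiguous, and elsewhere a pair from the other strand counts for the gene. *Mog* had 46 pairs in the counts, against 7 on its own strand and 43 on the other. *Gpr17*, which lies inside *Lims2* on the opposite strand, had 31 in the counts, against 1 on its own strand and 4013 on that of *Lims2*. The levels of *Mog* and *Gpr17* are therefore upper limits. Their folds are not printed, though they enter the medians over the 26 genes and are drawn with the others. *Lims2* had 23462 pairs in the counts and 27532 on its own strand, and *Nkx2-2*, which overlaps antisense neighbours, had 3920 and 5624, so their levels without strand are lower than those on their own strand. *Cnp*, which overlaps *Dnajc7*, had 190521 pairs in the counts and 190555 on its own strand, with 35673 on the other.

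The comparison of IP with input asks which transcripts are enriched on tagged ribosomes. Of the 26 genes tested, 15 were called, 9 higher and 6 lower in IP, and 11 did not pass the test. Among all 24495 genes tested, 51.0% were called, 25.2% higher and 25.8% lower, so the share of the list was near the background. That background spans genes of every level. Every gene of the list with at least 0.5 mean CPM was called, and no share of all genes at a like level was computed. The median log2 fold change was -0.14 over the 26 genes and -0.03 over all genes. Over the 12 genes of the list with at least 0.5 mean CPM it was 0.44, so the sign of the median depends on the 14 scarcer genes. *Nfasc*, *Cspg4*, *Olig1*, *Olig2*, *Sox8*, *Cnp* and *Lims2* were higher in IP, as were the scarcer genes *Myrf* and *Pdgfra*. Lower in IP were *Mbp*, *Aspa*, *Nkx2-2* and the scarce genes *Cldn11*, *Sox10* and *Mag*.

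Of the 7 transcription factor genes, 6 were tested and called, 4 higher and 2 lower, against 51.0% called among all genes (25.2% higher and 25.8% lower). *Olig1* stood at 118, 134 and 127 CPM in the input control libraries of replicates 4, 5 and 6, and at 110.0, 115 and 109 CPM in those of input ethanol. In IP, *Olig1* had 203 (lowest), 205 (median) and 217 (highest) CPM over the 6 control libraries and 174 (lowest), 184 (median) and 191 (highest) CPM over the 6 ethanol libraries. The IP and input libraries of *Olig1* did not overlap, whichever the treatment. Its log2 fold change was 0.72 (SE 0.022), with 12 of 12 IP libraries above the input mean (edgeR's quasi-likelihood test with Benjamini-Hochberg adjustment, adjusted p = 7.11e-40). *Olig1* lies on GRCm38 chromosome 16, 91269772 to 91271933, forward strand. Its neighbour *Olig2* (chromosome 16, 91225457 to 91228677, forward strand) behaved alike in direction. *Olig2* stood at 29.7, 32.4 and 30.5 CPM in the input control libraries of replicates 4, 5 and 6, and at 29.9, 30.8 and 31.1 CPM in those of input ethanol. In IP, *Olig2* had 43.5 (lowest), 46.9 (median) and 51.5 (highest) CPM over the 6 control libraries and 44.8 (lowest), 45.7 (median) and 48.0 (highest) CPM over the 6 ethanol libraries. Again the fractions did not overlap. With 12 of 12 IP libraries above the input mean, the log2 fold change of *Olig2* was 0.59 (SE 0.028) (edgeR's quasi-likelihood test with Benjamini-Hochberg adjustment, adjusted p = 3.19e-30). *Sox8* (chromosome 17, 25565892 to 25570686, reverse strand) differed without overlap as well, from 31.7 ± 2.10 CPM (SD, n = 6) in input to 45.6 ± 2.30 CPM (SD, n = 12) in IP, and gave a log2 fold change of 0.52 (SE 0.029) with 12 of 12 IP libraries above the input mean (edgeR's quasi-likelihood test with Benjamini-Hochberg adjustment, adjusted p = 4.36e-24).

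*Myrf* encodes the factor that starts the myelin program and was scarce. *Myrf* stood at 2.83, 2.89 and 3.23 CPM in the input control libraries of replicates 4, 5 and 6, and at 3.27, 3.17 and 3.67 CPM in those of input ethanol. In IP, *Myrf* had 3.45 (lowest), 3.84 (median) and 4.06 (highest) CPM over the 6 control libraries and 4.14 (lowest), 4.61 (median) and 4.93 (highest) CPM over the 6 ethanol libraries. The lowest IP library lay below the highest input library, so that the fractions overlapped, although all 12 IP libraries were above the input mean. *Myrf* had a log2 fold change of 0.40 (SE 0.062) (edgeR's quasi-likelihood test with Benjamini-Hochberg adjustment, adjusted p = 4.06e-08; chromosome 19, 10208272 to 10240748, reverse strand).

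*Nkx2-2* went the other way. *Nkx2-2* stood at 2.64, 3.03 and 3.04 CPM in the input control libraries of replicates 4, 5 and 6, and at 2.52, 2.999 and 3.06 CPM in those of input ethanol. In IP, *Nkx2-2* had 2.16 (lowest), 2.45 (median) and 2.69 (highest) CPM over the 6 control libraries and 2.01 (lowest), 2.26 (median) and 2.31 (highest) CPM over the 6 ethanol libraries. Its IP libraries overlapped those of input, while 12 of 12 lay below the input mean. The log2 fold change was -0.30 (SE 0.071) (edgeR's quasi-likelihood test with Benjamini-Hochberg adjustment, adjusted p = 0.000209; chromosome 2, 147177546 to 147194243, reverse strand).

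*Sox10*, which oligodendrocytes keep at every stage, was near the limit of detection. *Sox10* stood at 0.103, 0.0517 and 0.0453 CPM in the input control libraries of replicates 4, 5 and 6, and at 0.138, 0.0926 and 0.104 CPM in those of input ethanol. In IP, *Sox10* had 0 (lowest), 0.0251 (median) and 0.0493 (highest) CPM over the 6 control libraries and 0 (lowest), 0.0241 (median) and 0.0615 (highest) CPM over the 6 ethanol libraries. These are 18 and 28 read pairs in all over the input control and input ethanol libraries, and 12 and 15 over those of IP. The 12 IP libraries were each below the input mean, though the highest of them overlapped the lowest input libraries. The log2 fold change of *Sox10* was -1.70 (SE 0.51) (edgeR's quasi-likelihood test with Benjamini-Hochberg adjustment, adjusted p = 0.00347). Within the control libraries alone the log2 fold change was -1.38 and no longer passed (adjusted p = 0.183, edgeR's quasi-likelihood test with Benjamini-Hochberg adjustment), and over the alternatives tried the adjusted p ranged from 0.0014 to 0.183. *Sox10* lies on chromosome 15, 79154908 to 79165240, reverse strand.

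Both precursor surface genes with reads in quantity, *Cspg4* and *Pdgfra*, were called higher in IP, and *Pcdh15*, a cadherin of precursors, was not called, with 0.338 ± 0.0813 CPM (SD, n = 3) in input control and 0.38 ± 0.073 CPM (SD, n = 6) in IP control. *Cspg4* encodes the proteoglycan NG2 (chromosome 9, 56865033 to 56899870, forward strand). *Cspg4* stood at 9.74, 10.5 and 10.4 CPM in the input control libraries of replicates 4, 5 and 6, and at 11.2, 11.7 and 13.4 CPM in those of input ethanol. In IP, *Cspg4* had 19.1 (lowest), 21.4 (median) and 22.5 (highest) CPM over the 6 control libraries and 24.1 (lowest), 25.6 (median) and 27.1 (highest) CPM over the 6 ethanol libraries. Every IP library (12 of 12) was above every input library. *Cspg4* had a log2 fold change of 1.07 (SE 0.037) (edgeR's quasi-likelihood test with Benjamini-Hochberg adjustment, adjusted p = 8.24e-38).

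*Pdgfra* encodes the receptor for the precursor mitogen PDGF-A (chromosome 5, 75152292 to 75198215, forward strand). *Pdgfra* stood at 1.38, 1.33 and 1.46 CPM in the input control libraries of replicates 4, 5 and 6, and at 2.17, 1.63 and 2.40 CPM in those of input ethanol. In IP, *Pdgfra* had 1.51 (lowest), 1.74 (median) and 1.87 (highest) CPM over the 6 control libraries and 1.92 (lowest), 2.44 (median) and 2.68 (highest) CPM over the 6 ethanol libraries. The fractions overlapped widely, because the input ethanol libraries of replicates 4 and 6 lay above all 6 IP control libraries. The log2 fold change of IP vs. input was 0.26 (SE 0.087) (edgeR's quasi-likelihood test with Benjamini-Hochberg adjustment, adjusted p = 0.00886), with 10 of 12 IP libraries above the input mean. Without input ethanol replicate 5 it was 0.19 and did not pass (adjusted p = 0.072, edgeR's quasi-likelihood test with Benjamini-Hochberg adjustment; range over its alternatives 0.00238 to 0.163), nor did it pass within the control libraries (0.30, adjusted p = 0.0532) or the ethanol libraries alone (0.21, adjusted p = 0.163).

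Of the 3 genes of newly committed cells, *Gpr17*, *Enpp6* and *Bcas1*, 0 were called in IP vs. input, against 51.0% of all genes tested. *Enpp6*, a choline phosphodiesterase, had 36 read pairs over the 3 input control libraries and 41 over the 6 of IP control, and *Bcas1* had 25 and 29. A difference between fractions was not detected for these genes.

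Of the 9 myelin genes, 8 were tested and 4 called, with *Cnp* higher and *Mbp*, *Mag* and *Cldn11* lower in IP, near the 51.0% called among all genes. *Mbp* encodes myelin basic protein, which compacts the sheath, and its transcripts include forms that start upstream and are used outside myelin. *Mbp* stood at 3.91, 4.04 and 3.84 CPM in the input control libraries of replicates 4, 5 and 6, and at 5.25, 4.58 and 4.69 CPM in those of input ethanol. In IP, *Mbp* had 1.40 (lowest), 1.80 (median) and 1.93 (highest) CPM over the 6 control libraries and 1.68 (lowest), 1.92 (median) and 2.07 (highest) CPM over the 6 ethanol libraries. Every input library was above every IP library. Between fractions *Mbp* had a log2 fold change of -1.28 (SE 0.07) (edgeR's quasi-likelihood test with Benjamini-Hochberg adjustment, adjusted p = 1.33e-26; chromosome 18, 82475146 to 82585637, forward strand). *Cnp* held most of the myelin group, at 97.3% of its summed CPM. It stood at 98.3 ± 2.51 CPM (SD, n = 6) in input and 134 ± 5.14 CPM (SD, n = 12) in IP without overlap, a log2 fold change of 0.45 (SE 0.022) with 12 of 12 IP libraries above the input mean (edgeR's quasi-likelihood test with Benjamini-Hochberg adjustment, adjusted p = 2.79e-29). *Cldn11*, the tight junction gene of myelin, had at most 29 read pairs in a library and a log2 fold change of -1.82 (SE 0.34), and *Mag*, a glycoprotein of the inner myelin membrane, had -0.82 (SE 0.25) (adjusted p = 4.53e-06 and 0.00397, edgeR's quasi-likelihood test with Benjamini-Hochberg adjustment). In IP, 12 of 12 libraries of *Cldn11* and 11 of 12 of *Mag* lay below the input mean, and the call of *Mag* was lost within the control libraries alone (log2 fold change -0.70, adjusted p = 0.182, edgeR's quasi-likelihood test with Benjamini-Hochberg adjustment).

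*Mog* stood at 0.0456, 0.031 and 0.0227 CPM in the input control libraries of replicates 4, 5 and 6, and at 0.092, 0 and 0 CPM in those of input ethanol. In IP, *Mog* had 0 (lowest), 0.0332 (median) and 0.122 (highest) CPM over the 6 control libraries and 0 (lowest), 0.0106 (median) and 0.0539 (highest) CPM over the 6 ethanol libraries. *Mog*, a protein of the outermost myelin layer (chromosome 17, 37010743 to 37023398, reverse strand), was thus near or at 0 throughout, its libraries overlapped in every comparison, and most of its few pairs lay on the opposite strand. The other myelin genes, *Mobp*, *Mal* and *Ermn*, were not called, and *Mal* had 0.404 ± 0.106 CPM (SD, n = 3) in input control and 0.327 ± 0.0709 CPM (SD, n = 6) in IP control.

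Among the 3 enzymes, *Aspa*, which splits N-acetylaspartate and so frees acetate for myelin lipids, was called. *Aspa* stood at 1.301, 1.49 and 1.201 CPM in the input control libraries of replicates 4, 5 and 6, and at 1.61, 1.29 and 0.989 CPM in those of input ethanol. In IP, *Aspa* had 0.446 (lowest), 0.65 (median) and 0.763 (highest) CPM over the 6 control libraries and 0.574 (lowest), 0.702 (median) and 0.722 (highest) CPM over the 6 ethanol libraries. All 12 IP libraries lay below all 6 input libraries. Its log2 fold change between fractions was -1.02 (SE 0.12) (edgeR's quasi-likelihood test with Benjamini-Hochberg adjustment, adjusted p = 1.96e-11; chromosome 11, 73304992 to 73329596, reverse strand). *Ugt8a* and *Fa2h*, which make the galactolipids of myelin, had at most 11 and 12 read pairs in a library and were not called.

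Of the genes of junctions and adhesion, *Nfasc* and *Lims2* were higher in IP and the connexin gene *Gjc3* was not called. *Nfasc* stood at 82.0, 79.4 and 83.4 CPM in the input control libraries of replicates 4, 5 and 6, and at 99.7, 99.5 and 102 CPM in those of input ethanol. In IP, *Nfasc* had 162.9 (lowest), 166.6 (median) and 173 (highest) CPM over the 6 control libraries and 208 (lowest), 217 (median) and 227 (highest) CPM over the 6 ethanol libraries. The fractions of *Nfasc* were fully apart (chromosome 1, 132564690 to 132741797, reverse strand). Its log2 fold change of 1.07 (SE 0.021) was, with that of *Cspg4*, the highest among the called genes of the list, and 12 of 12 IP libraries lay above the input mean (edgeR's quasi-likelihood test with Benjamini-Hochberg adjustment, adjusted p = 2.16e-53). *Lims2* stood at 13.2, 13.1 and 14.7 CPM in the input control libraries of replicates 4, 5 and 6, and at 10.7, 10.7 and 10.8 CPM in those of input ethanol. In IP, *Lims2* had 17.9 (lowest), 19.6 (median) and 20.4 (highest) CPM over the 6 control libraries and 12.9 (lowest), 13.8 (median) and 15.1 (highest) CPM over the 6 ethanol libraries. Here the lowest IP ethanol libraries overlapped the input control libraries, while 12 of 12 IP libraries were above the input mean. For *Lims2* the log2 fold change between fractions was 0.44 (SE 0.038) (edgeR's quasi-likelihood test with Benjamini-Hochberg adjustment, adjusted p = 7.02e-17; chromosome 18, 31922290 to 31958619, forward strand).

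Input and IP of replicates 4 to 6 come from the same 6 dishes, so the ratio of IP to input can be read within each dish. On the log2 scale it lay between 1.01 and 1.11 for *Nfasc*, 0.93 and 1.21 for *Cspg4*, and 0.61 and 0.78 for *Olig1*. It lay between -1.48 and -1.02 for *Mbp*, and -1.74 and -0.47 for *Aspa*. For *Nfasc*, *Cspg4*, *Olig1*, *Olig2*, *Sox8*, *Cnp*, *Lims2*, *Myrf* and *Pdgfra* it was above 0 in 6 of 6 dishes, and for *Mbp*, *Aspa*, *Nkx2-2*, *Cldn11* and *Mag* below 0 in 6 of 6, while *Pdgfra* came as low as 0.002.

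Markers of other cell types moved between the fractions in the same libraries, where 51.0% of all genes were called. Of the 12 astrocyte markers, 9 were higher and 1 lower in IP, with a median log2 fold change of 0.57. Of the 10 microglia markers 9 were lower and 0 higher, with a median of -2.31. Of the 10 fibroblast markers 6 were lower and 4 higher, with a median of -1.35, or -0.68 for the 8 with at least 0.5 mean CPM. Among the 10, *Islr* had the highest mean CPM (196). The 10 fibroblast markers summed to 406, 403 and 404 CPM in input control, 406, 398 and 412 CPM in input ethanol, 327 to 362 (median 352) CPM in IP control and 348 to 376 (median 364) CPM in IP ethanol. The part of these cells in the values of *Mbp*, *Aspa*, *Sox10* and the other genes lower in IP was not tested.

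The 10 mural markers, which share *Cspg4* with the list, gave 5 higher and 3 lower (median 0.18, or 0.30 for the 9 with at least 0.5 mean CPM). The contractile gene *Acta2* had the highest mean CPM of the mural markers (1215). Of the Schwann cell markers, which share *Sox10*, 2 of 10 were higher and 4 lower (median -0.19), and *Pmp22* had the highest mean CPM (96.3). Neuronal markers gave 5 higher and 2 lower of 12 tested (median 0.28), with *Stmn2* highest at 95.9 CPM and *Slc17a6* at 0 read pairs. Endothelial markers gave 1 higher and 4 lower of 7 tested (median -0.24), with *Slco1a4* highest at 59.1 CPM and the defining gene *Cldn5* at 0 read pairs. Ependymal markers gave 2 higher and 1 lower of 6 (median -0.13), with *Foxj1* highest at 417 CPM. Summed over each list, in the order input control, input ethanol, IP control and IP ethanol, the group means were 1438, 1043, 1835 and 1324 CPM for mural, 138, 132, 114 and 108 CPM for Schwann cell and 119, 110.2, 146.9 and 133 CPM for neuronal markers. They were 48.1, 52.0, 69.8 and 81.4 CPM for endothelial and 391, 385, 460.0 and 477 CPM for ependymal markers in the same order. A single gene held most of each sum, with *Acta2* at 82.9%, *Pmp22* at 80.9%, *Stmn2* at 72.9%, *Slco1a4* at 88.1% and *Foxj1* at 94.3%. The sums therefore follow these genes and not their lists. *Slco1a4* stood at 39.1 CPM in input control and 62.4 CPM in IP control, while 4 endothelial markers were lower in IP. The part of these cells in the values of the lineage genes was not tested. *Pdgfra* is counted under the fibroblast markers as well.

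**Figure D2:**
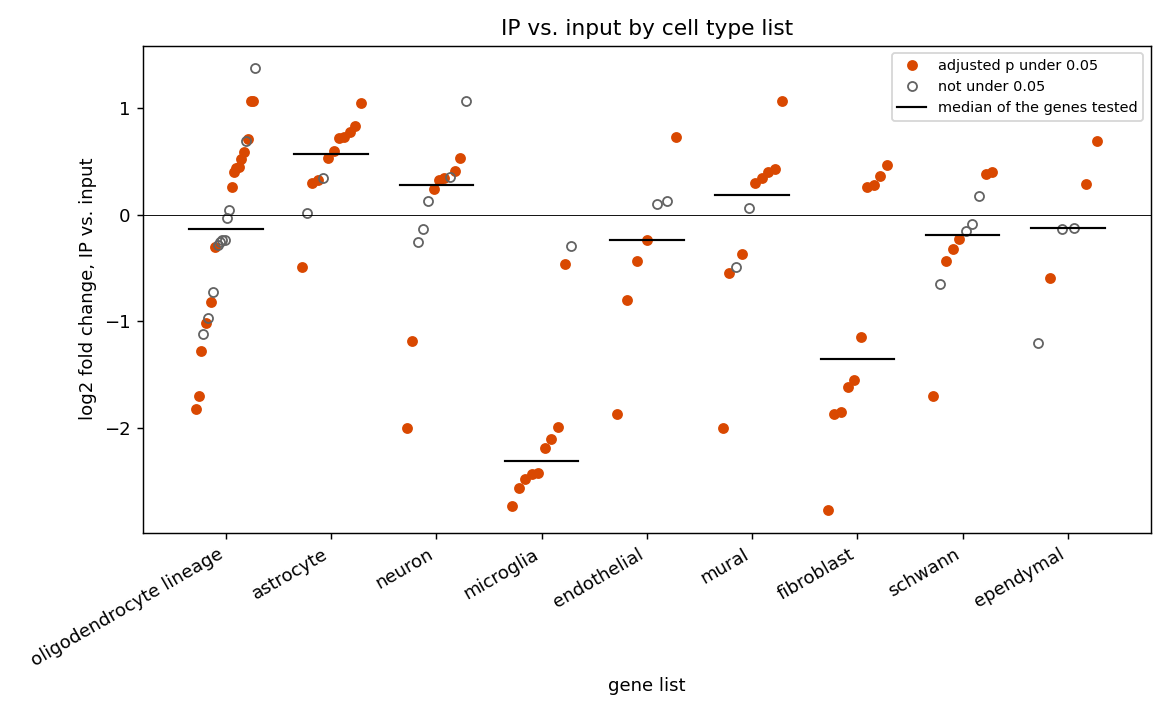
Log2 fold change of IP vs. input for each tested gene of the oligodendrocyte lineage list and of 8 cell type lists, with filled points at an adjusted p under 0.05 and a line at each median. The lineage genes spread on both sides of 0 with a median of -0.14, which is 0.44 for the 12 of them with at least 0.5 mean CPM.

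The comparison of ethanol with control asks which transcripts change after 24 h with 50 mM ethanol, and it was made within each fraction. In IP, 6 of the 26 genes tested were called, or 4 higher and 2 lower, against 21.4% of all genes tested (11.9% higher and 9.48% lower). In input, 6 of the 26 were called, 4 higher and 2 lower, against 15.0% of all genes (7.21% higher and 7.78% lower). The balance of higher and lower genes depends on scaling, from 2911 higher and 2322 lower to 2618 and 2573 in IP with DESeq2 size factors, and from 1767 and 1905 to 2011 and 1703 in input with total counts. The median log2 fold change of the 26 genes was 0.12 in IP and 0.05 in input, and that of all genes was 0.005 and -0.0009. *Nfasc*, *Pdgfra* and *Cspg4* rose and *Lims2* and *Olig1* fell in each fraction, *Myrf* rose in IP and *Mbp* rose in input. The other 19 genes tested, *Sox10*, *Mog* and *Aspa* among them, were called in neither fraction. Input and IP of replicates 4 to 6 share dishes, so these comparisons are not independent of each other. Between dishes, fewer cells of a type and less RNA per cell cannot be told apart in bulk libraries.

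*Nfasc* had the ethanol change with the smallest adjusted p of the list in either fraction. The ethanol libraries were above all control libraries in IP and in input, and in IP the mean went from 167.8 ± 4.38 to 216 ± 6.43 CPM (SD, n = 6 each). The log2 fold change was 0.37 (SE 0.024) in IP and 0.30 (SE 0.027) in input, with all 6 and all 3 ethanol libraries above the control mean (adjusted p = 5.9e-19 and 2.12e-25, edgeR's quasi-likelihood test with Benjamini-Hochberg adjustment).

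*Pdgfra* and *Cspg4*, the surface genes of precursors, rose as well. *Pdgfra* went from 1.73 ± 0.12 to 2.38 ± 0.302 CPM in IP (SD, n = 6 each), without overlap, and from 1.39 ± 0.0643 to 2.07 ± 0.392 CPM in input (SD, n = 3 each), also without overlap, where replicate 5 lay closest to the controls. The log2 fold changes were 0.47 (SE 0.095) and 0.56 (SE 0.15) (adjusted p = 8.91e-05 and 0.00333, edgeR's quasi-likelihood test with Benjamini-Hochberg adjustment), with 6 of 6 and 3 of 3 ethanol libraries above the control mean. In IP the call was lost in dishes 1 to 3 alone (log2 fold change 0.39, adjusted p = 0.0536 in the same quasi-likelihood test of edgeR with Benjamini-Hochberg adjustment). *Cspg4* went from 21.1 ± 1.26 to 25.7 ± 1.12 CPM in IP and from 10.2 ± 0.428 to 12.1 ± 1.17 CPM in input, again without overlap in either fraction. Its log2 fold changes were 0.29 (SE 0.038) and 0.23 (SE 0.064) (adjusted p = 1.81e-08 and 0.0034, edgeR's quasi-likelihood test with Benjamini-Hochberg adjustment), again higher in 6 of 6 and 3 of 3 libraries. In input, leaving out ethanol replicate 6 ended the calls of *Pdgfra* (log2 fold change 0.44, adjusted p = 0.0772) and *Cspg4* (0.15, adjusted p = 0.185) in edgeR's quasi-likelihood test with Benjamini-Hochberg adjustment. Over their alternatives in input the adjusted p ranged from 0.00058 to 0.0772 for *Pdgfra* and from 0.000647 to 0.185 for *Cspg4*.

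Fibroblast and mural marker lists, which share these surface genes, are set beside them here. Among all genes tested, 21.4% were called with ethanol in IP and 15.0% in input. Of the 10 fibroblast markers, 1 was higher and 0 lower in IP, and that gene was *Pdgfra* itself, while in input 1 was higher, again *Pdgfra*, and 1 lower, *Mgp*. Of the 10 mural markers, 2 were higher and 3 lower in IP, and 1 higher and 2 lower in input, with *Cspg4* among the higher ones in each fraction. The mural list summed to 1434, 1404 and 1478 CPM in input control, 1047, 1075 and 1008 in input ethanol, 1767 to 1904 (median 1839) in IP control and 1196 to 1400.4 (median 1342) in IP ethanol. *Acta2* held 82.9% of the CPM of the list. With ethanol it fell from 1186 to 790 CPM in input and from 1589 to 1069 CPM in IP (group means). The fall of the sum is therefore largely that of *Acta2*. The part of fibroblasts in the change of *Pdgfra* and that of mural cells in the change of *Cspg4* was not tested.

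*Lims2* and *Olig1* fell. *Lims2* went from 19.3 ± 1.14 to 14.0 ± 0.739 CPM in IP (SD, n = 6 each) and from 13.7 ± 0.887 to 10.7 ± 0.0338 CPM in input (SD, n = 3 each), and the ethanol libraries were below all control libraries in either fraction. The log2 fold changes were -0.46 (SE 0.042) and -0.36 (SE 0.061) (adjusted p = 3.17e-13 and 3.37e-07, edgeR's quasi-likelihood test with Benjamini-Hochberg adjustment), lower in 6 of 6 and 3 of 3 libraries. *Olig1* went from 207 ± 5.54 to 184 ± 6.40 CPM in IP and from 126 ± 7.84 to 111 ± 3.40 CPM in input, with no overlap. Its log2 fold changes were -0.17 (SE 0.025) and -0.19 (SE 0.025) (adjusted p = 3.59e-07 and 2.11e-11, edgeR's quasi-likelihood test with Benjamini-Hochberg adjustment), lower in 6 of 6 and 3 of 3 libraries. *Olig2*, which lies close to *Olig1* on chromosome 16, stood at 46.7 ± 2.91 CPM in IP control and 45.9 ± 1.18 CPM in IP ethanol and was not called.

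*Myrf* and *Mbp* were called in a single fraction each. *Myrf* went from 3.81 ± 0.243 to 4.59 ± 0.291 CPM in IP (SD, n = 6 each) without overlap, a log2 fold change of 0.28 (SE 0.067), and from 2.98 ± 0.216 to 3.37 ± 0.265 CPM in input (SD, n = 3 each), where the groups overlapped and the log2 fold change was 0.17 (SE 0.12) (adjusted p = 0.00129 in IP and 0.39 in input, edgeR's quasi-likelihood test with Benjamini-Hochberg adjustment). *Mbp* went from 3.93 ± 0.103 to 4.84 ± 0.361 CPM in input without overlap, a log2 fold change of 0.30 (SE 0.10), and from 1.71 ± 0.226 to 1.89 ± 0.156 CPM in IP, with overlap and a difference of 0.16 (SE 0.10) on the log2 scale (adjusted p = 0.0222 in input and 0.305 in IP, edgeR's quasi-likelihood test with Benjamini-Hochberg adjustment). The call of *Mbp* in input was lost without input control replicate 4, without input control replicate 6 and without input ethanol replicate 4, with log2 fold changes of 0.29, 0.28 and 0.24 (adjusted p = 0.0617, 0.0877 and 0.167, edgeR's quasi-likelihood test with Benjamini-Hochberg adjustment). The call of *Myrf* in IP was lost in dishes 4 to 6 alone, at 0.20 (adjusted p = 0.165, edgeR's quasi-likelihood test with Benjamini-Hochberg adjustment). Omission of IP control replicate 4 took *Mbp* in IP to 0.10, and omission of input ethanol replicate 6 took *Myrf* in input to 0.10, neither of them called with or without it.

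Whether an ethanol change differs between IP and input was tested with an interaction term in edgeR's quasi-likelihood fit over the 18 libraries. Of the 26 genes, 0 were called, and of all 24495 genes 0 were (0%), with 1459 genes (5.96%) at an unadjusted p under 0.05, of which 0 were in the list. Other fits called 102 genes when the dish entered as a block, on the 12 libraries whose dish gave both fractions, 2 with DESeq2 and 0 with the counts of the annotated strand, and 0 of the list in each. For *Nfasc*, *Pdgfra*, *Cspg4*, *Lims2*, *Olig1*, *Myrf* and *Mbp* the difference of the log2 fold changes, IP less input, lay between -0.15 (*Mbp*) and 0.09 (*Myrf*). A call of *Myrf* in IP and of *Mbp* in input therefore does not show that their changes differ between the fractions.

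**Figure D3:**
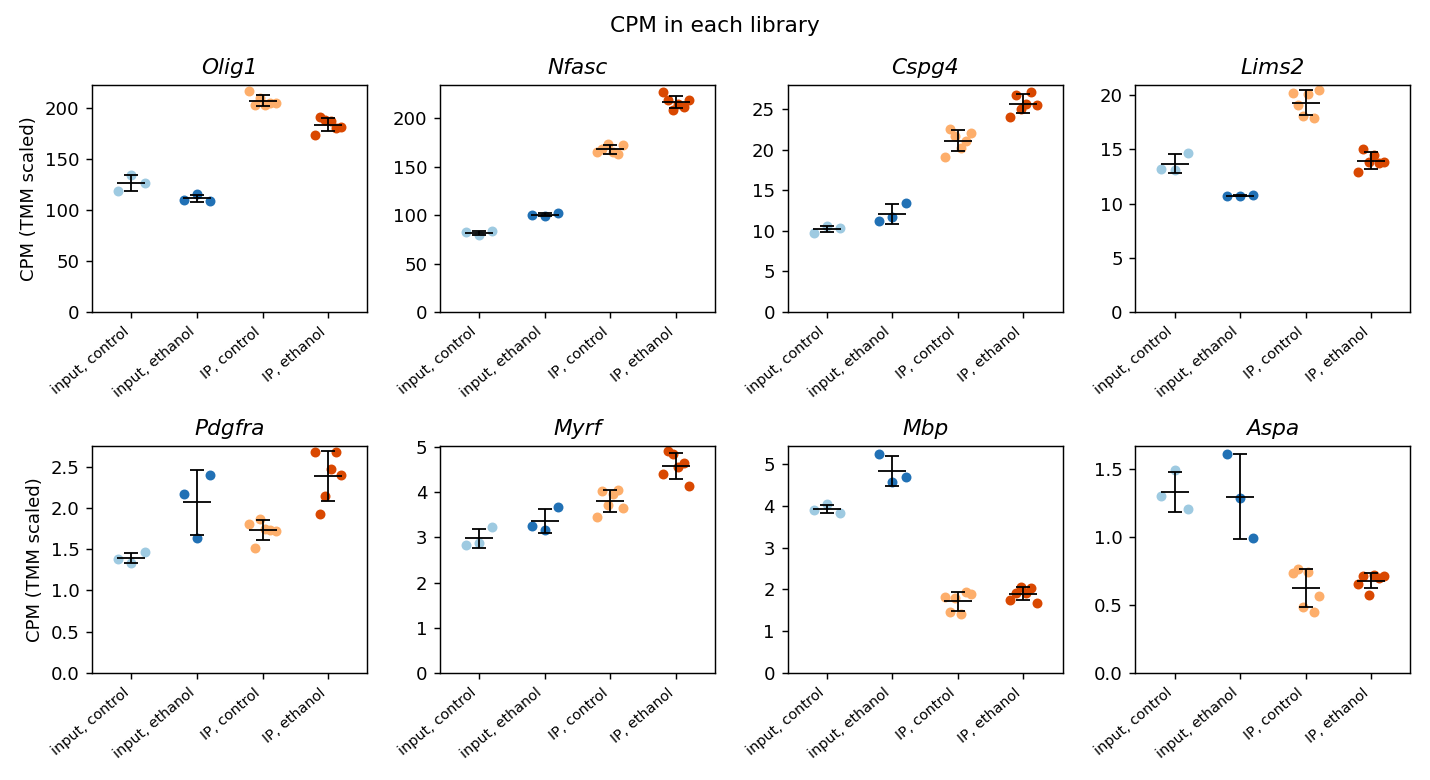
CPM of *Olig1*, *Nfasc*, *Cspg4*, *Lims2*, *Pdgfra*, *Myrf*, *Mbp* and *Aspa* in each of the 18 libraries, with the mean and SD of each group, on linear axes from 0. The IP ethanol libraries of *Nfasc* (208 to 227 CPM) lie above its IP control libraries and those of *Lims2* (12.9 to 15.1 CPM) below, and input of *Mbp* and *Aspa* lies above IP.

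A second list held 29 further genes of the lineage, of which 27 were tested and *Klk6* and *Gjb1* had under 3 read pairs in each library. In IP vs. input 7 were higher and 12 lower, with a median log2 fold change of -0.08. With ethanol 3 were higher and 0 lower in IP, and 1 was higher and 0 lower in input. The shares called among all genes were 51.0%, 21.4% and 15.0% in these comparisons. The highest by RPKM were the deacetylase gene *Sirt2* (115 RPKM), the glycolipid transfer gene *Gltp* (45.5 RPKM) and *C1ql1* (9.61 RPKM), a secreted C1q-like protein of precursors. *C1ql1* went from 14.0 ± 0.869 to 16.6 ± 0.376 CPM in IP (SD, n = 6 each) and from 10.8 ± 0.62 to 12.9 ± 0.569 CPM in input (SD, n = 3 each) without overlap, log2 fold changes of 0.25 (SE 0.042) and 0.26 (SE 0.062) (adjusted p = 4.76e-06 and 0.000673, edgeR's quasi-likelihood test with Benjamini-Hochberg adjustment), higher in 6 of 6 and 3 of 3 libraries. *Gpr37*, a receptor of myelinating cells, was lower in IP than in input, with a log2 fold change of -1.35 (SE 0.11) and 12 of 12 IP libraries below the input mean (edgeR's quasi-likelihood test with Benjamini-Hochberg adjustment, adjusted p = 1.1e-18). It stood at 0.718 ± 0.226 CPM in IP control and 0.952 ± 0.0862 CPM in IP ethanol, with overlap, a log2 fold change of 0.40 (SE 0.15) with 6 of 6 libraries higher (edgeR's quasi-likelihood test with Benjamini-Hochberg adjustment, adjusted p = 0.0462). With DESeq2, its size factors, filterByExpr or strand counts the log2 fold change was 0.40 in each, just above the threshold (adjusted p = 0.0514 to 0.0538, edgeR's quasi-likelihood test with Benjamini-Hochberg adjustment, or DESeq2). Leaving out IP control replicate 1, 2, 3, 5 or 6 or IP ethanol replicate 3, 4, 5 or 6 also ended the call, with log2 fold changes of 0.32 to 0.40, as did dishes 1 to 3 (0.43) and dishes 4 to 6 (0.37) alone.

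Factors that act on precursors formed a list of 20 genes, all tested. Of these, 8 were higher and 8 lower in IP than in input, with a median of 0.01, and with ethanol 4 were higher and 5 lower in IP and 4 higher and 5 lower in input. Among all genes tested, 51.0% were called in IP vs. input, 21.4% with ethanol in IP and 15.0% with ethanol in input. *Gas6*, a ligand of TAM receptors, was the highest at 389.6 RPKM, before *Timp1* (68.5 RPKM), an inhibitor of metalloproteinases, and *Pdgfa* (58.7 RPKM), the ligand of PDGFRA. In input control *Pdgfa* lay above *Timp1* (61.3 against 58.6 RPKM), and in input ethanol they were close (61.3 and 61.9 RPKM). *Pdgfa* stood at 121 ± 3.68 CPM in IP control and 116 ± 3.51 CPM in IP ethanol (SD, n = 6 each) and was not called. *Cxcl1*, a chemokine that acts on precursors, went from 102 ± 5.37 to 79.5 ± 7.77 CPM in IP and from 90.8 ± 3.12 to 75.7 ± 2.09 CPM in input, with overlap in IP and none in input, log2 fold changes of -0.35 (SE 0.062) and -0.27 (SE 0.028) (adjusted p = 0.00185 and 8.83e-20, edgeR's quasi-likelihood test with Benjamini-Hochberg adjustment), lower in 6 of 6 and 3 of 3 libraries.

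Genes chosen as brakes on oligodendrocyte differentiation formed a list of 17, all tested. Whether each of them, *Sox9* and *Sox2* included, acts as a brake was not tested. In IP vs. input 9 were higher and 4 lower (median 0.09), against 51.0% called among all genes tested (25.2% higher and 25.8% lower). With ethanol 10 were higher and 0 lower in IP, and 9 higher and 0 lower in input, with medians of 0.09 and 0.08. Among all genes tested, 11.9% were higher and 9.48% lower in IP, and 7.21% higher and 7.78% lower in input. These genes are also used by astrocytes, and *Sox9* is in the astrocyte list, in which 5 of 12 genes were higher and 0 lower with ethanol in IP, and 5 higher and 3 lower in input. The highest by RPKM were the inhibitors of DNA binding *Id3* (228 RPKM) and *Id1* (112 RPKM) and the progenitor factor *Sox2* (111 RPKM). *Id2* went from 49.0 ± 1.77 to 55.6 ± 2.44 CPM in IP (SD, n = 6 each) and from 48.6 ± 1.14 to 58.3 ± 2.49 CPM in input (SD, n = 3 each), with no overlap, log2 fold changes of 0.19 (SE 0.03) and 0.26 (SE 0.032) (adjusted p = 1.76e-06 and 1.74e-13, edgeR's quasi-likelihood test with Benjamini-Hochberg adjustment), higher in 6 of 6 and 3 of 3 libraries. *Sox5*, a repressor of differentiation, stood at 1.36 ± 0.24 CPM in IP control and 1.68 ± 0.117 CPM in IP ethanol, with overlap, a log2 fold change of 0.31 (SE 0.11) with 6 of 6 libraries higher (edgeR's quasi-likelihood test with Benjamini-Hochberg adjustment, adjusted p = 0.0344). Omission of IP control replicate 2, 3 or 4 or IP ethanol replicate 1, 2 or 6 ended the call, with log2 fold changes of 0.24 to 0.31, as did dishes 1 to 3 (0.35) and dishes 4 to 6 (0.27) alone, and *Sox5* was not called in input.

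The remaining cell type lists gave the following calls with ethanol, where 21.4% of all genes were called in IP and 15.0% in input. Microglia markers gave 3 higher and 0 lower of 10 in IP, and 2 and 0 in input. Neuronal markers gave 0 and 1 of 12 in IP, and 1 and 1 in input. Endothelial markers gave 1 and 0 of 7 in IP, and 1 and 0 in input. Schwann cell markers gave 2 and 2 of 10 in IP, and 0 and 1 in input, and ependymal markers 1 and 2 of 6, and 0 and 1. Their part in the ethanol changes of the lineage genes was not tested.

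The sequences before the start of 4 genes are shown because the list spans abundant and near-silent genes, and CG dinucleotides are a sequence feature by which promoters differ. RefSeq gave a promoter for 21 of the 29 genes (build GRCm38.p6, from which the coordinates come), and the 250 bases before the start held between 1 and 32 CG in these genes, against a median of 6 over all 32851 promoters, of which 92.1% held at least 1. The letters CG read the same on both strands, and they are in capitals in the sequences. *Sox8* (chr17:25570687-25570936, reverse strand) was abundant and held 18, while *Cldn11* (chr3:31149670-31149919, forward strand) was scarce and held 19, more than 78.3% and 80.3% of all promoters. *Mog* (chr17:37023399-37023648, reverse strand) held 2 and *Opalin* (chr19:41077114-41077363, reverse strand) 4. These 4 genes were chosen after their levels were seen, and whether CG goes with level over the list was not tested.
Sox8: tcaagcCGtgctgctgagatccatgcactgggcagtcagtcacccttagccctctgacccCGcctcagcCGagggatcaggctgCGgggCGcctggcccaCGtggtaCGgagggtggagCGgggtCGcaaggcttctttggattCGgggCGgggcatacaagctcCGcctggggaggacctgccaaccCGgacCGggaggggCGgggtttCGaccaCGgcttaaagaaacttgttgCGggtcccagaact
Cldn11: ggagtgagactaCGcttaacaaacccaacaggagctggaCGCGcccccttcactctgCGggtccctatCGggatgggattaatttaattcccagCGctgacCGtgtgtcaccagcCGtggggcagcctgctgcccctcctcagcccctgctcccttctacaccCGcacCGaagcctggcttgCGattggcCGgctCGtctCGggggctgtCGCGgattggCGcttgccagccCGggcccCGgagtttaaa
Mog: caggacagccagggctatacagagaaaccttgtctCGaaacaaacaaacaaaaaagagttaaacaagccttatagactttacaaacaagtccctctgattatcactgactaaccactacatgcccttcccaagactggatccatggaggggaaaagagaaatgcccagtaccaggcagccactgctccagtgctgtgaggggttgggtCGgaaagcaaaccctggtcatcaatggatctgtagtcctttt
Opalin: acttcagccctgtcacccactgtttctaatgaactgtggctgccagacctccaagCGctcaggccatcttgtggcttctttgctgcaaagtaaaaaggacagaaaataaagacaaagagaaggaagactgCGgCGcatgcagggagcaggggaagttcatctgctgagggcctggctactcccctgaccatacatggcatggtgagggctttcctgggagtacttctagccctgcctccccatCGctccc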

How the data were processed

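RNA of 18 libraries was sequenced from the IP and input fractions of 12 dishes. The deposited values are raw counts, which the authors made by trimming adapters with Trimmomatic, aligning to GRCm38 with STAR and counting read pairs per gene (versions not stated). The counts used here take no account of strand, and the deposited counts of each strand served as an alternative. Genes were placed by GENCODE M21. Pairs on genes numbered 74239854 to 132810705 per library (median 84119135), and 3 counts, the most that a count of 0 allows, are 0.0228 to 0.0409 CPM.

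Tests were run in R 4.3.3 with edgeR 4.0.16 (TMM, robust quasi-likelihood fit, Benjamini-Hochberg over the 24495 genes with at least 10 counts over the 18 libraries, threshold 0.05). IP vs. input used the 18 libraries with treatment as covariate. Ethanol was tested within IP and within input, and their difference as an interaction. The code was tested on simulated data with known changes.

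Input and IP with the same treatment and number come from the same dish, so they are true pairs, and their deviations from the group means correlated at r = 0.0191 to 0.1531. Alternatives were DESeq2 1.42.0, its size factors, total counts, no filter, filterByExpr, strand counts, each library left out, the dish as a block, each treatment alone and dishes 1 to 3 or 4 to 6 alone.

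The genes and lists were chosen with earlier results of these data known. The lists are the 29 lineage genes by role, further lineage genes, signals to the lineage, brakes on differentiation, and astrocyte, neuron, microglia, endothelial, mural, fibroblast, Schwann cell and ependymal markers. Values are given for *Pdgfra*, *Cspg4*, *Sox10*, *Olig2*, *Mbp* and *Mog*, for lineage genes of at least 0.5 mean CPM called with ethanol, and for the 3 highest and 3 lowest folds of IP vs. input among called lineage genes of at least 0.5 mean CPM. Of the further lineage, signal and brake lists, the 3 highest by RPKM and the largest called ethanol change per fraction are named, and of cell type lists, where used here, the gene of highest mean CPM and those at 0. Other genes named were chosen after their values were seen.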

Additional observations from a re-analysis of the deposited data

Results flagged for a closer look

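Among 52 groups of 6 libraries looked at, 4 held a library far from the other 5. A chance rate of about 1 in 20 groups holds for values with a normal spread. It was not worked out for counts near 0, such as those of *Ermn* and *Cldn11*. *Mag* in IP ethanol replicate 1 had 0.2555 CPM (24 read pairs), against 0.1228 to 0.1617 CPM in the other IP ethanol libraries. *Cnp* in IP control replicate 5 had 126.5 CPM, against 132.0 to 134.8 CPM. *Cldn11* in IP control replicate 1 had 0.01221 CPM (1 read pair), against 0.08119 to 0.1215 CPM. *Ermn* in IP ethanol replicate 5 had 0.03592 CPM (3 read pairs), against 0 to 0.01065 CPM.

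The strand counts, which served the comparisons only as an alternative, held read pairs opposite to a pair of genes. There were 43 on the strand opposite to *Mog*, against 7 on its own, and 4013 opposite to *Gpr17*, against 1 on its own. The strand opposite to *Gpr17* is that of *Lims2*, within which it lies.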

How the results depend on the processing

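The alternatives gave 678 values for lineage genes. Besides the calls, they cover results that were not called: *Myrf* in input, *Mbp* in IP and the interaction of genes called with ethanol. Of the 678, 665 kept direction and side of the threshold and 12 no longer passed it. The 1 value with the other sign was the interaction of *Pdgfra*, which was not called. Of 567 values for the other genes named, 520 kept both and 47 no longer passed. Lineage genes called in IP vs. input numbered 14 to 15 with single libraries left out, 14 with filterByExpr, 12 in control libraries and 14 in ethanol libraries, against 15. With ethanol they numbered 6 to 8 in IP with single libraries left out (6 in the full set, 5 in dishes 1 to 3 and 5 in dishes 4 to 6), and 4 to 6 in input (6 in the full set, 7 with total counts). The calls gained were *Cnp* (log2 fold change 0.07) and *Sox8* (0.09) without IP ethanol replicate 1, and *Sox8* in input with total counts (0.11) and without input ethanol replicate 4 (0.14).

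With the dish as a replicate block, the 12 libraries gave 15 called genes in IP vs. input, as without it. In that paired fit the interaction of *Pdgfra* had a log2 value of 0.0015, against -0.10 in the full set, and the cause was not tested. The block changed no call of the list. Control dishes and ethanol dishes have no more than a number in common (r = -0.1036 to 0.2214), and that number as a replicate block gave 6 called genes in IP and 6 in input.

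Counts limit what can be seen for the 16 genes under 0.1 RPKM on average. With 3 libraries per input group, a single library can end a call, as for *Mbp*, *Pdgfra* and *Cspg4*. Scaling by total counts moved the median log2 fold change of all genes in IP vs. input from -0.03 to -0.08, with 5104 genes higher and 7394 lower, against 6172 and 6326.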
